A study of Mus musculus with 18 samples.

Results

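The Wnt module described here is a list of 52 mouse genes: Wnt ligands, their Frizzled, LRP and ROR receptors, the LGR receptors with their R-spondin ligands, secreted antagonists, beta-catenin with its scaffold proteins, TCF/LEF transcription factors and feedback inhibitors. Members were found by gene symbol among the 54347 rows of the gene table, and all 52 were present. Of these, 36 reached 10 counts in 3 or more of the 18 libraries and are called measured below, against 14163 genes of the whole table. The other 16 did not reach that level.

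The cells were mesenchymal stem cells (MSCs) grown from the bone marrow of male C57BL/6J mice, with marrow taken from several animals. No source used here gives their age. The first experiment held 3 libraries each of untreated cells (control), cells given CK666, a small molecule that blocks branched actin assembly by the Arp2/3 complex, and cells given cytochalasin D (CytoD), which blocks actin filament growth. Drug exposure lasted about a day. The second experiment held 3 libraries each of cells transfected with a control siRNA (siControl), cells transfected with an siRNA against Arp4 (siArp4) and cells given that siRNA and then CK666 (siArp4+CK666). For that exposure the study's discussion gives the same time for chromatin accessibility, and states none separately for the RNA. Every cell of the second experiment was transfected by lipid reagent and none of the first was, so transfection and experiment cannot be told apart. Control siRNA cells given CK666 are not analysed here. The siRNA reduces Arp4 in a whole culture for a time and does not delete the gene. The 3 libraries of a group were separate preparations. The study's reporting summary states that a primary line made from those mice served all its work. The p-values therefore measure the spread between preparations and not between animals.

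Wnt ligands bind a Frizzled receptor together with LRP5 or LRP6, which spares beta-catenin from degradation and lets it act with TCF/LEF factors on target genes. R-spondins bind LGR4, LGR5 or LGR6 and take the ubiquitin ligases RNF43 and ZNRF3 off the cell surface, so that more Frizzled remains there. In marrow stroma the pathway is known for favouring bone formation over fat formation, and secreted antagonists of the SFRP and DKK families limit it.

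Total counts ran from 18075610 to 24733212 per library. Actl6a, which encodes Arp4, read 720.1, 1127 and 841 normalised counts in the siControl libraries. It read 48.8, 57.2 and 19.0 with the Arp4 siRNA, and 9.52, 22.9 and 17.9 when CK666 was added, so the knockdown was present in all 6 libraries given the siRNA. Of 13 stromal cell markers, 11 reached 10 counts in some library, Pdgfra, Pdgfrb, Cxcl12, Prrx1 and Col1a1 among them, while the defining MSC marker Thy1 was at 0 in every library and Nt5e reached at most 8.3 counts. Blood cell markers summed to at most 12.1 CPM (counts scaled to a library total of 1000000), with 3 of 7 reaching 10 counts in any library and the T cell marker Cd3e at 0 in all. Endothelial markers summed to at most 1.25 CPM, with 1 of 4 reaching 10 counts and Cdh5 at 0 in all. The 3 siControl libraries stood apart from one another: the module took 0.187%, 0.104% and 0.152% of their counts, against 0.232% to 0.246% in control. Comparisons of members with siControl are therefore given below with the calls that end when 1 library is left out.

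Proximal promoters are shown for 4 of the called members for which a stretch was available. None was available for Lgr5, Rspo2, Sfrp1, Sfrp4, Fzd2 or Rspo3. Lgr4 and Sfrp2 fell with CK666 in untransfected cells, and Sfrp2, Lgr6 and Nkd2 had a CK666 effect that differed after Arp4 knockdown. Each is the 250 bases before the transcript start in RefSeq (GRCm38.p6), 5′ to 3′ on the gene's own strand, and lies just outside the gene's model in GENCODE. Capitals mark matches to the motifs searched.
Lgr4 (chr2:109917397-109917646, plus strand): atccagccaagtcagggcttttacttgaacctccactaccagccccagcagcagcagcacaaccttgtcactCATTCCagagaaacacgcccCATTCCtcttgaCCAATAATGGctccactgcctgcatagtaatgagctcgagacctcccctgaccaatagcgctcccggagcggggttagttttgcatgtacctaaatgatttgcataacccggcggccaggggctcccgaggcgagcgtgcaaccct
Sfrp2 (chr3:83766071-83766320, plus strand): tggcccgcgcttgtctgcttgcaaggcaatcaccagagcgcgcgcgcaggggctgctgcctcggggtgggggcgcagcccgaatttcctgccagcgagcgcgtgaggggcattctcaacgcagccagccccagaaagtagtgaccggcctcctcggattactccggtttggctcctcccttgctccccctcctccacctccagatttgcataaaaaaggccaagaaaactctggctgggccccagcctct
Lgr6 (chr1:135105277-135105526, minus strand): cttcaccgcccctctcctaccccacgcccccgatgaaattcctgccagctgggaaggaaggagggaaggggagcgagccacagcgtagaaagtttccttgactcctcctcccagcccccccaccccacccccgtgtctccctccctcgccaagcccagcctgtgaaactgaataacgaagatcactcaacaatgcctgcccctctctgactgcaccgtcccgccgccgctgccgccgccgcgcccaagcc
Nkd2 (chr13:73847632-73847881, minus strand): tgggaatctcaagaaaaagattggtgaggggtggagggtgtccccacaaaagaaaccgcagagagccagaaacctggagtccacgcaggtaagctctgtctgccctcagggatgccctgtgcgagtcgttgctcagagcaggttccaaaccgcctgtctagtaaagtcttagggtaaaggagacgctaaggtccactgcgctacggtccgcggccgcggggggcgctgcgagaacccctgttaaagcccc
The motifs were the TCF/LEF core CTTTGA and the TEAD core GGAATG, each on both strands, and the CArG box bound by serum response factor, which reads alike on both strands. The Lgr4 stretch held 2 TEAD cores on the opposite strand, which begin 178 and 158 bases before the start, and a CArG box that begins 146 bases before it, with no overlap. The Sfrp2, Lgr6 and Nkd2 stretches held none of these letters. Promoters were listed for 21 of the 36 measured members, 30 stretches in all. A CArG box was in 10% of those stretches, at Lgr4, Lef1 and Tcf7, and in 1.47% of all 32851 stretches of the same length. The TCF/LEF core was in 16.7% of member stretches against 13.8% of all, and the TEAD core in 3.33% against 12.6%. These are matches of letters and were not tested as binding sites.

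In untreated cells the highest levels were those of beta-catenin, the antagonist Sfrp1, R-spondin 2 and Frizzled receptors, while ligand transcripts were low apart from Wnt5a. Levels between genes are given as RPKM, the CPM divided by the kilobases of exon (mean ± SD, n = 3). Ctnnb1, which encodes beta-catenin, was highest in control at 164 ± 10.5, followed by Sfrp1 at 47.6 ± 1.47 and Rspo2 at 43.9 ± 0.869. Fzd2 (28.8 ± 0.816) and Fzd7 (27.6 ± 1.4) differed by no more than their spread. Among ligands, Wnt5a, a mostly beta-catenin-independent Wnt, stood at 9.65 ± 0.106, and Wnt11, Wnt9a, Wnt5b and Wnt10b each had a mean of at most 0.36. The LGR family was mostly Lgr4, with 61.3% ± 1.76 of its summed RPKM in control, then Lgr6 with 32.3% ± 0.93 and Lgr5 with 6.44% ± 0.89.

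**Figure D1:**
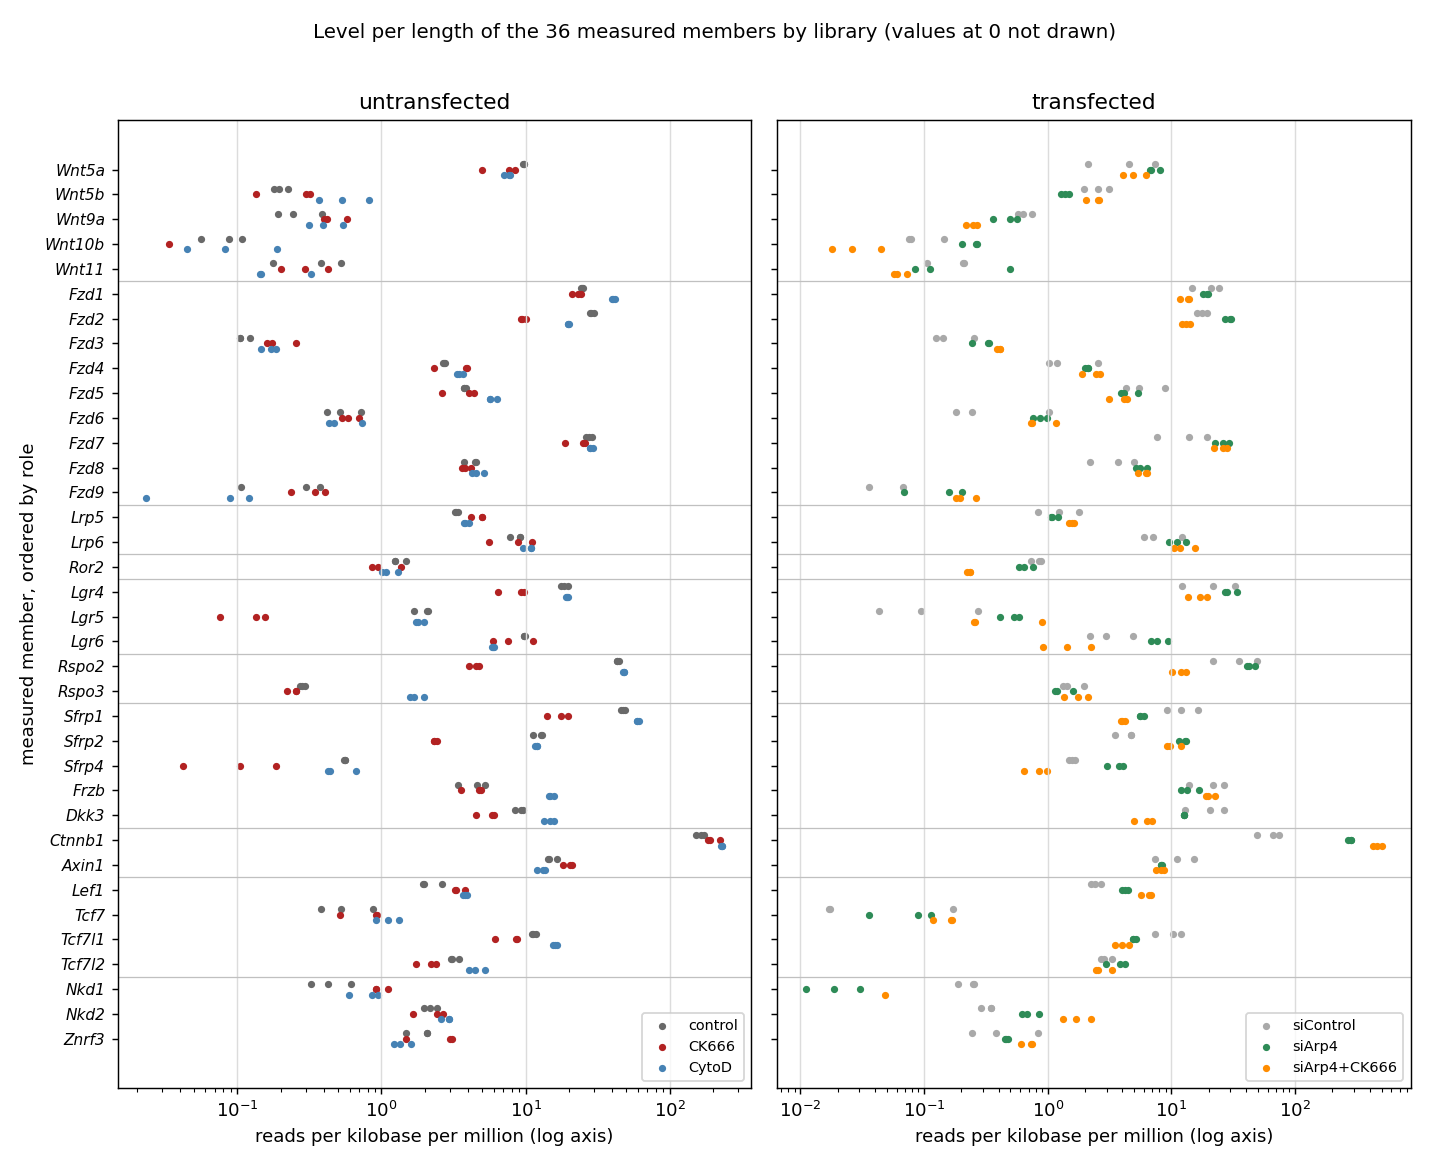
Level of each of the 36 measured members in every library, in RPKM on a log axis, with untransfected groups at left and transfected groups at right; each point is 1 library. Ctnnb1 lies highest in control (mean 163.8) and Wnt10b lowest (mean 0.0836), and the siControl points of Rspo2 run from 21.5 to 48.8 where its control points run from 43.4 to 44.9.

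The 16 members under the minimum were 7 ligands (Wnt2, Wnt2b, Wnt4, Wnt6, Wnt7b, Wnt10a and Wnt16), Ror1, Rspo1, 5 antagonists (Sfrp5, Dkk1, Dkk2, Wif1 and Sost), Axin2 and Rnf43. Dkk1 and Sost, antagonists that bind LRP5 and LRP6, had 0 counts in all 18 libraries. Another 5 of the 16 stayed at or under 3 counts in every library. Wnt4 reached 20.2 counts in its highest library, which was CK666 replicate 3. Axin2, a widely used target of beta-catenin signalling, reached at most 13.4 counts, in siArp4+CK666 replicate 2. Rnf43, the partner of Znrf3, reached 42.2 counts in siArp4+CK666 replicate 1 and passed 10 in no other library. No member under the minimum was called in any comparison.

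A gene is called when its log2 fold change exceeds 1 in size and its adjusted p (DESeq2 Wald test, Benjamini-Hochberg over all genes tested) is under 0.01. Fold changes are given on the log2 scale with the standard error, and library values are DESeq2 normalised counts, which compare libraries within an experiment. Of the 36 measured members, 21 were called in at least 1 of 7 comparisons and 15 in none, beside 40% of all 14163 measured genes called in at least 1. In bulk RNA, fewer cells of a type and less RNA per cell cannot be told apart. Non-overlap of groups is stated to describe single members. How common it was over all genes was not counted.

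CK666 lowered R-spondin 2, Lgr5, Lgr4, Fzd2 and 3 SFRP antagonists in untransfected cells, by 2.26-fold to 16.5-fold. Of 36 measured members 7 were called lower and 1 higher, beside 6.06% of all 14597 genes tested called lower and 4.89% called higher. The members' median log2 fold change was -0.17, against 0.01 over all genes tested. The stromal markers also moved with CK666, with a sum of 3388 to 4099 CPM against 6722 to 7107 in control. Their part in these differences was not tested.

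Rspo2 (chromosome 15, 43020794 to 43170826, minus strand, GRCm38), the main R-spondin of these cells, read 4599.5, 4707 and 4581 in control and 434, 454 and 479.8 with CK666. The groups lay far apart, with no overlap and little spread within either (log2 fold change -3.34 ± 0.08, adjusted p below the smallest value the software stores). Cells given CytoD read 4749.6, 4679 and 4862, near control (log2 fold change 0.04 ± 0.08, adjusted p = 0.712).

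Lgr5 (chromosome 10, 115450311 to 115587780, minus strand), an R-spondin receptor known as a stem cell marker in several epithelia, read 359, 443 and 439.8 in control. With CK666 it read 16.7, 31.6 and 27, which was 16.5-fold lower (log2 fold change -4.05 ± 0.23, adjusted p = 1.46e-64). Every CK666 library lay below every control library. The receptor Lgr4 (chromosome 2, 109917647 to 110014257, plus strand) read 2402, 2241 and 2152 in control and 798, 1135 and 1079 with CK666, again without overlap (log2 fold change -1.17 ± 0.14, adjusted p = 3.83e-16). Lgr6 did not pass the test, at 1390.0, 1383 and 1395 in control and 857, 1519 and 1018 with CK666 (log2 fold change -0.30 ± 0.19, adjusted p = 0.207). One CK666 library lay above all control libraries and the other two below them. The family's makeup therefore differed from control: Lgr6 was 48.4% ± 4.37 of summed LGR RPKM with CK666, and Lgr5 was 0.71% ± 0.095.

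The SFRP proteins bind Wnt ligands outside the cell. Sfrp1, the most abundant, read 4193, 4254 and 4442 in control and 1296, 1700.3 and 1507 with CK666 (log2 fold change -1.52 ± 0.11, adjusted p = 3.31e-40). Sfrp2 (chromosome 3, 83766321 to 83774316, plus strand) read 568, 502 and 582 in control and 104, 98.9 and 103 with CK666, a 5.39-fold fall (log2 fold change -2.43 ± 0.14, adjusted p = 5.46e-62). Sfrp4 was low to begin with, at 48.4, 47.7 and 47.6, and read 3.93, 8.16 and 14.9 with CK666 (log2 fold change -2.40 ± 0.47, adjusted p = 2.78e-06). None of these 3 groups of libraries overlapped its control. The antagonist Frzb was not called (log2 fold change -0.05 ± 0.18, adjusted p = 0.876). Dkk3, a divergent member of the Dickkopf family, was under the fold minimum (log2 fold change -0.78 ± 0.13, adjusted p = 5.13e-08).

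Among Frizzled receptors only Fzd2 was called among the 9 measured. It read 2133, 2230.0 and 2162 in control and 775, 675 and 681 with CK666 (log2 fold change -1.62 ± 0.09, adjusted p = 3.54e-64). The other 8 had log2 fold changes from -0.29 to 0.78, none of which passed. The co-receptors Lrp5 and Lrp6 were not called, at 0.46 and -0.08.

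Nkd1, a feedback inhibitor that binds Dishevelled, was the 1 member called higher. It read 39.7, 57.5 and 31 in control and 106, 82.6 and 82.8 with CK666 (log2 fold change 1.08 ± 0.32, adjusted p = 0.00321). The groups did not overlap, but the call ended when control replicate 1 (1.03) or 3 (0.90) or CK666 replicate 1 (0.95) or 3 (1.15) was left out, and with edgeR (1.09, adjusted p = 0.0126). Wnt5a read 1572, 1564 and 1541 in control and 812, 1189.6 and 1299 with CK666. It passed the adjusted p but not the fold minimum (log2 fold change -0.50 ± 0.16, adjusted p = 0.00735).

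Beta-catenin, its scaffold Axin1 and the TCF/LEF factors had no member called with CK666. Ctnnb1 read 17885, 18441 and 16358 in control and 24203, 18833 and 19638 with CK666 (log2 fold change 0.25 ± 0.11, adjusted p = 0.0677). Of the 4 TCF/LEF factors, Lef1 at 0.61, Tcf7l1 at -0.59 and Tcf7l2 at -0.63 passed the adjusted p alone, and Tcf7 did not (log2 fold change 0.37 ± 0.41, adjusted p = 0.514). Counting the adjusted p alone, 15 members passed with CK666, beside 30% of all genes tested.

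**Figure D2:**
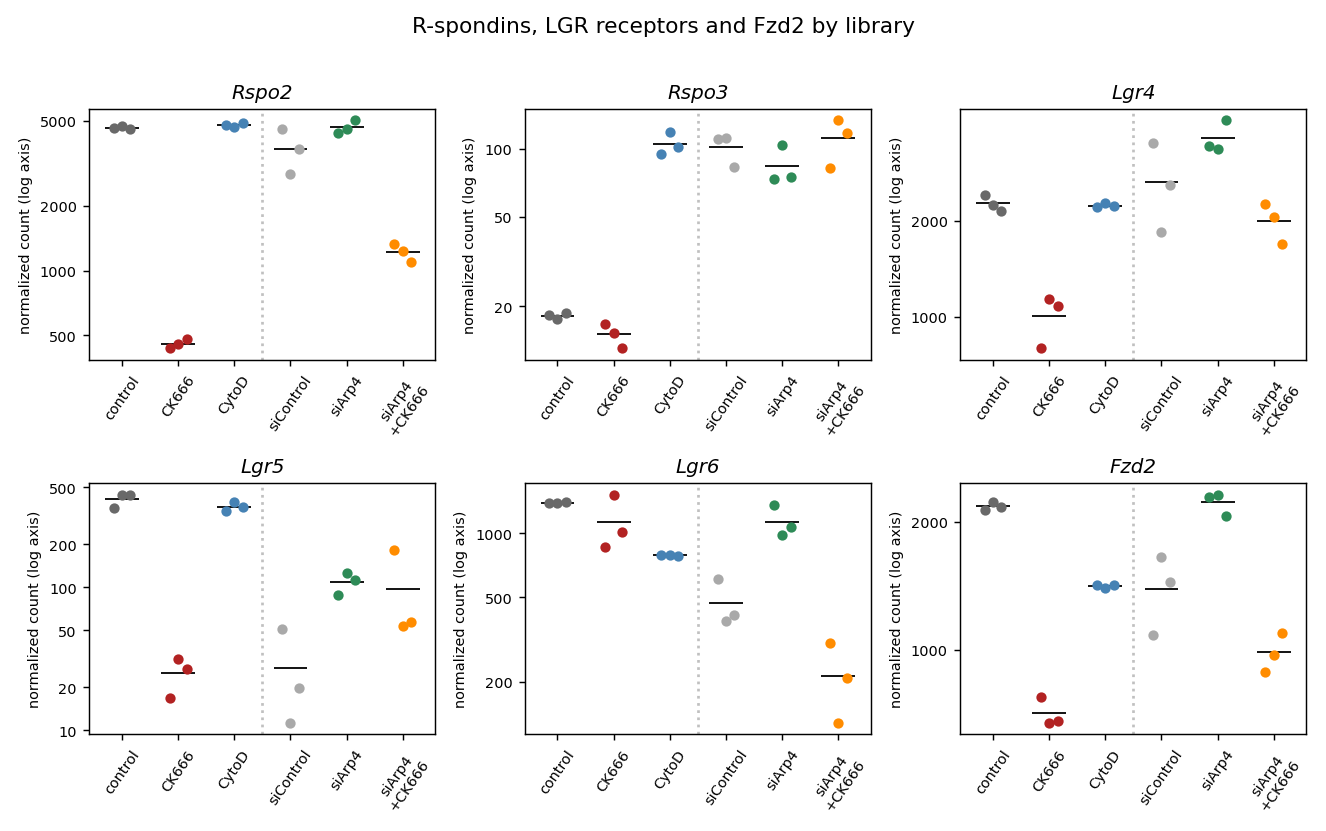
DESeq2 normalised counts on a log axis of 2 R-spondins, 3 LGR receptors and Fzd2 in each library of the 6 groups; points are libraries, the bar is the mean of 3, and the dotted line parts the 2 experiments, which were normalised separately. Rspo2 in the CK666 libraries lies between 434 and 479.8, below every control library, and Rspo3 is raised in the CytoD libraries.

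CytoD raised Rspo3 and Frzb. They were the 2 of 36 measured members called higher, beside 4.8% of the 13717 genes tested, and 0 members were called lower, beside 4.32%. At adjusted p alone, without the fold minimum, 10 members passed, beside 29.6% of all genes tested. The members' median log2 fold change was 0.21, against 0.01 over all genes tested. Rspo3, an R-spondin expressed at a low level here, read 18.4, 17.5 and 18.6 in control and 94.6, 118 and 102 with CytoD, a 5.78-fold rise without overlap (log2 fold change 2.53 ± 0.33, adjusted p = 3.78e-13). Frzb read 353, 228 and 305 in control and 974, 914 and 939 with CytoD (log2 fold change 1.67 ± 0.18, adjusted p = 2.29e-19). Every CytoD library again lay above every control library. Marker sums moved with CytoD too, stromal markers to between 10467 and 10735 CPM from 6722 to 7107 in control. Blood markers moved to between 7.83 and 8.19 from 3.62 to 5.56. The stromal markers did not move together: in RPKM, Cxcl12 rose from 204 to 678 and Col1a1 was at 443 and 436. Itgb1 fell from 290 to 195 and Cd44 from 20.3 to 10.4. The part of these markers in the differences was not tested.

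Members under the fold minimum but past the adjusted p with CytoD included Fzd1 at 0.63, Lef1 at 0.72, Ctnnb1 at 0.41 and Dkk3 at 0.60. Fzd2 and Lgr6 passed the adjusted p in the other direction, at -0.62 and -0.82. Lgr5 was at 342, 390.1 and 364 with CytoD, which overlapped control (log2 fold change -0.18 ± 0.17, adjusted p = 0.44). Lgr4 and the SFRP genes were also not called (-0.02 for Lgr4, 0.25 for Sfrp1, -0.15 for Sfrp2 and -0.22 for Sfrp4).

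Set directly against CytoD, the CK666 libraries were lower for 10 members and higher for none, beside 6.74% and 5.08% of the 15038 genes tested. The median over members was -0.28, against -0.03 over all genes tested. Stromal markers summed to 3388 to 4099 CPM with CK666 and 10467 to 10735 with CytoD, and blood markers to 2.72 to 4.93 and 7.83 to 8.19. In RPKM, the stromal marker Cxcl12 was at 125 with CK666 and 678 with CytoD. Itgb1 (245 and 195) and Cd44 (17.3 and 10.4) were higher with CK666. The part of these markers in this comparison was not tested. All 5 measured secreted antagonists were among the 10, with Sfrp1 at -1.77, Sfrp2 at -2.28, Sfrp4 at -2.19, Frzb at -1.72 and Dkk3 at -1.38. Dkk3 read 320.3, 398 and 387 with CK666 and 873, 1019 and 978 with CytoD, and control lay between them at 590.1, 658 and 647 (log2 fold change -1.38 ± 0.13, adjusted p = 5.93e-24).

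Both measured R-spondins were also lower in CK666 than in CytoD cells, Rspo2 at -3.39 and Rspo3 at -2.81, as were Lgr5 at -3.87 and Lgr4 at -1.15. Tcf7l2, a TCF factor, read 320.3, 384 and 415 with CK666 and 684, 896 and 769.7 with CytoD (log2 fold change -1.07 ± 0.15, adjusted p = 3.65e-11). Its call ended without CK666 replicate 1 (-0.97) or CytoD replicate 2 (-0.96). Another 3 members near the fold minimum became calls when 1 library was left out: Fzd2 without CK666 replicate 1, Znrf3 without CK666 or CytoD replicate 1, and Tcf7l1 without CK666 replicate 2 or 3 or CytoD replicate 3. This comparison shares its libraries with the CK666 and CytoD comparisons against control.

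Arp4 knockdown raised Ctnnb1, Sfrp2, Sfrp4, Lgr5, Lgr6 and Nkd2 above siControl and lowered Sfrp1 and Nkd1. The 6 higher and 2 lower members stand beside 6.69% and 9.49% of the 15415 genes tested. The median over members was 0.42, against -0.05 over all genes tested. Endothelial markers summed to 0.434 to 0.606 CPM in siArp4 and 0.231 to 0.317 in siControl. Stromal markers summed to 6047 to 6768 in siArp4 and 3674 to 7923 in siControl, and moved both ways. From siControl to siArp4, Col1a1 went from 195 to 621 RPKM and Ly6a from 39.1 to 108. Cxcl12 went from 387 to 72.3 and Eng from 0.606 to 0.231. The part of these markers in the differences was not tested. Among members, the largest rise in RPKM was in Ctnnb1 (chromosome 9, 120929216 to 120960507, plus strand). It read 6285, 6544 and 7824 in siControl and 30407, 30855 and 28338 in siArp4, with every knockdown library above every siControl library (log2 fold change 2.12 ± 0.16, adjusted p = 2.13e-39). Its RPKM was 63.3 ± 12.8 in siControl and 277 ± 9.61 in siArp4, and 164 ± 10.5 in the untransfected control. The antisense gene Ulk4 overlaps the span of Ctnnb1, with a mean of 39.0 counts beside 24770 for Ctnnb1. Whether their exons overlap was not checked.

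Sfrp2 read 184, 194 and 204 in siControl and 588, 583 and 512 in siArp4 (log2 fold change 1.54 ± 0.19, adjusted p = 3.96e-14). Sfrp4 read 113, 169 and 141 and then 328, 354 and 258 (log2 fold change 1.16 ± 0.26, adjusted p = 8.47e-05). Sfrp1 went the other way, from 1318, 1031 and 1057 to 547, 515 and 497 (log2 fold change -1.13 ± 0.16, adjusted p = 1.37e-10). None of these 3 antagonists had overlapping groups. Frzb and Dkk3 were not called, at -0.56 (adjusted p = 0.0184) and -0.65 (adjusted p = 0.0051).

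Lgr5 was scarce in siControl, at 51.1, 11.3 and 19.6, and read 88.4, 126 and 112 in siArp4 (log2 fold change 1.98 ± 0.62, adjusted p = 0.00575). Each siArp4 library lay above each siControl library. Leaving out siControl replicate 2 (1.61) or 3 (1.78) or siArp4 replicate 1 (2.11), 2 (1.86) or 3 (1.96) ended the call, as did edgeR (1.95, adjusted p = 0.0424). In RPKM, Lgr5 was 0.137 ± 0.12 in siControl and 0.512 ± 0.0885 in siArp4, set beside 1.95 ± 0.234 in the untransfected control and 0.122 ± 0.0413 with CK666. The siControl and CK666 levels differed by less than the spread between libraries, and no test was made across the 2 experiments for these levels.

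Lgr6 (chromosome 1, 134983301 to 135105276, minus strand) read 611, 386 and 414 in siControl and 1350.0, 978 and 1068 in siArp4, without overlap (log2 fold change 1.27 ± 0.33, adjusted p = 0.000802). This call ended without siControl replicate 3 (1.18, adjusted p = 0.0124) or siArp4 replicate 1 (1.12, adjusted p = 0.0172), and with edgeR (1.25, adjusted p = 0.0149). Lgr4 was not called, at 3493, 1839 and 2581 and 3436, 3357 and 4119.8, where the groups overlapped (log2 fold change 0.46 ± 0.26, adjusted p = 0.159). Rspo2 likewise overlapped, at 4563, 2808 and 3669 in siControl and 4379, 4572 and 5014 in siArp4 (log2 fold change 0.34 ± 0.21, adjusted p = 0.21).

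The Naked cuticle genes Nkd1 and Nkd2 went in opposite directions. Nkd2 (chromosome 13, 73818534 to 73847631, minus strand) read 30.2, 35.2 and 34.6 in siControl and 68.2, 61.6 and 85.2 in siArp4 (log2 fold change 1.11 ± 0.31, adjusted p = 0.00158). Its call ended without siControl replicate 1 (1.03, adjusted p = 0.0102) or 3 (1.13, adjusted p = 0.0107) or siArp4 replicate 1 (1.15, adjusted p = 0.0104) or 3 (0.97, adjusted p = 0.0266). Nkd1 read 21, 21.4 and 23.3 in siControl and 0.842, 2.16 and 3.01 in siArp4. Its summed raw counts of 6 against 67 put the knockdown at 8.84% of siControl per total count, with an exact 95% interval of 3.13% to 20.3% that covers counting error only (log2 fold change -3.48 ± 0.96, adjusted p = 0.00163). The Nkd1 call ended with edgeR and when siControl replicate 1, 2 or 3 or siArp4 replicate 1 or 2 was left out, with log2 fold changes between -3.54 and -3.08.

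Frizzled genes mostly had positive log2 fold changes with the knockdown but none was called. Fzd7 read 1604, 885 and 1284 in siControl and 2143, 2461 and 2732 in siArp4 and passed the adjusted p under the fold minimum (log2 fold change 0.96 ± 0.24, adjusted p = 0.000422). It became a call without siControl replicate 1 (1.17) or siArp4 replicate 1 (1.05). Without siControl replicate 1, Wnt5a (1.01), Wnt5b (-1.21), Fzd3 (1.03) and Fzd6 (1.87) also became calls. Tcf7l1, a TCF factor known mainly as a repressor, became one without siControl replicate 2 (-1.05) or siArp4 replicate 2 (-1.02) and was at -0.99 with all libraries (adjusted p = 4.39e-10).

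**Figure D3:**
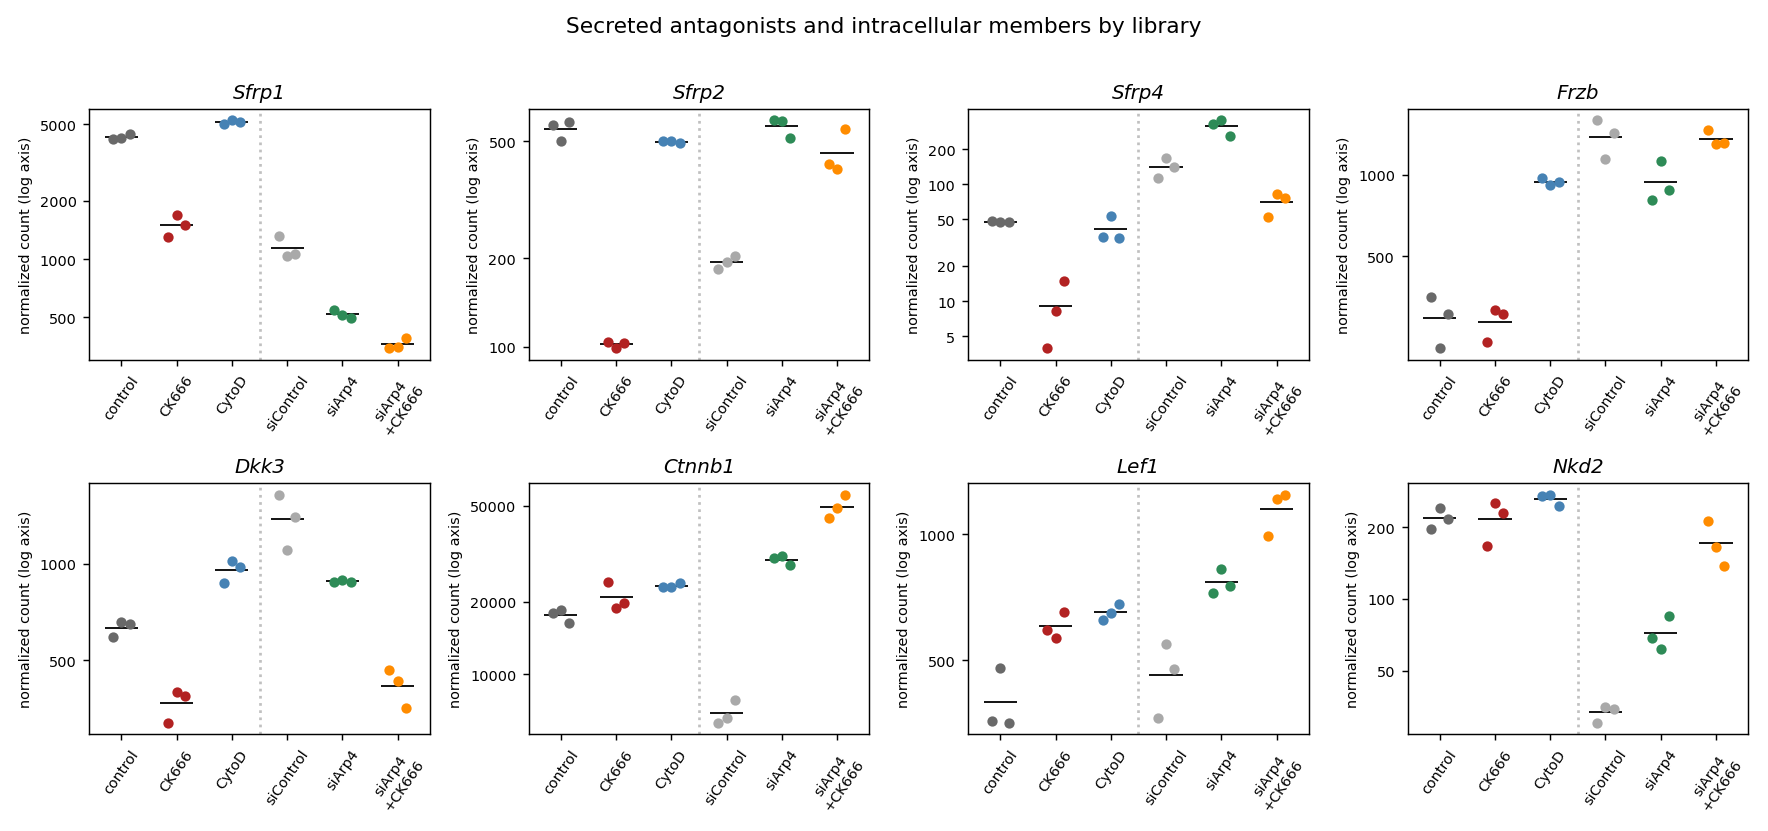
DESeq2 normalised counts on a log axis of 5 secreted antagonists, Ctnnb1, Lef1 and Nkd2 in each library of the 6 groups; points are libraries, the bar is the mean of 3, and the dotted line parts the 2 experiments, which were normalised separately. Sfrp2 falls to between 98.9 and 104.1 with CK666 in untransfected cells and lies between 401 and 588 in the Arp4 knockdown libraries with and without CK666.

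Arp4 knockdown with CK666, set against siControl, gave 5 members higher and 8 lower, beside 8.06% and 12.4% of the 15415 genes tested. The median over members was -0.08, against -0.05 over all genes tested. Ctnnb1 read 44247, 48930.0 and 55576, which was 7.21-fold higher than siControl (log2 fold change 2.85 ± 0.16, adjusted p = 1.28e-71). Its RPKM reached 464 ± 37.1. Lef1, a TCF/LEF factor, read 362, 546 and 476 in siControl and 993, 1214 and 1246 here, with 725, 825 and 753 in siArp4 alone (log2 fold change 1.32 ± 0.20, adjusted p = 1.02e-09). The antisense gene Gm43352 overlaps Lef1, with a mean of 30.7 counts. Nkd2 read 214, 166 and 137 (log2 fold change 2.38 ± 0.30, adjusted p = 3.64e-14), and Sfrp2 read 419, 401 and 550.1 (log2 fold change 1.24 ± 0.19, adjusted p = 1.7e-09).

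Fzd3 was low, at 58.7, 46.5 and 32.7 in siControl and 104, 108 and 106 here (log2 fold change 1.201 ± 0.298, adjusted p = 0.000285). It fell just under the fold minimum without siControl replicate 3 (0.995). In this group the endothelial markers summed to 1.05 to 1.25 CPM, against 0.231 to 0.317 in siControl. Of these only Kdr was higher, at 0.125 RPKM against 0.018, with at most 24.7 counts in any library. Pecam1 (0.005 against 0.01) and Tek (0 against 0.01) were lower. The stromal markers summed to 3303 to 4193 CPM, against 3674 to 7923. The part of either list in these differences was not tested.

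The members called lower came from several roles. Ror2, a receptor for Wnt5a, read 67.9, 91.8 and 62.6 in siControl and 19, 20.0 and 21.1 here, without overlap (log2 fold change -1.88 ± 0.34, adjusted p = 2.68e-07). Dkk3 read 1639, 1099 and 1394 and then 465, 431 and 355 (log2 fold change -1.72 ± 0.20, adjusted p = 3.1e-16). Sfrp1 read 345, 349 and 392 (log2 fold change -1.65 ± 0.17, adjusted p = 1.19e-21). Rspo2 read 1334, 1235 and 1099, below every siControl library (log2 fold change -1.59 ± 0.21, adjusted p = 7.85e-13).

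Tcf7l1 read 851, 739 and 822 in siControl, 398, 427 and 391 in siArp4 and 352, 321 and 295 with both (log2 fold change -1.32 ± 0.15, adjusted p = 3.93e-17). Nkd1 was at 0, 0 and 4.22, and its summed counts of 4 against 67 put it at 6.3% of siControl per total count (exact 95% interval 1.67% to 16.9%, counting error only; log2 fold change -3.99 ± 1.05, adjusted p = 0.000681). Without siControl replicate 3 its call ended (-3.94, adjusted p = 0.014). Wnt9a, a ligand near the count minimum, read 45.3, 52.8 and 39.2 in siControl and 18, 17.2 and 15.8 here (log2 fold change -1.42 ± 0.38, adjusted p = 0.000935). The Wnt9a call ended without siControl replicate 2 (-1.32, adjusted p = 0.0109) or siArp4+CK666 replicate 2 (-1.43, adjusted p = 0.0101).

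Lgr6 read 303, 129 and 208, below every siControl library (log2 fold change -1.14 ± 0.34, adjusted p = 0.00271). Its call ended without siControl replicate 1 (-0.91), siArp4+CK666 replicate 2 (-0.88) or replicate 3 (-1.12), and with edgeR (-1.16, adjusted p = 0.0187). Lgr5 was not called, at 182, 53.4 and 56.9 (log2 fold change 1.82 ± 0.62, adjusted p = 0.0108). One of these libraries was more than 3 times the other two, and Lgr5 became a call without siControl replicate 1 (2.64) or siArp4+CK666 replicate 2 (2.11) or 3 (2.09). Sfrp4 became a call without the same 3 libraries, at -1.13, -1.12 and -1.04, and was at -0.99 with all of them. Without siControl replicate 1, Fzd6 (1.89), Fzd7 (1.12) and Znrf3 (1.01) also became calls.

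Within Arp4 knockdown cells, CK666 lowered Rspo2, Sfrp4, Fzd2, Lgr6, Ror2, Dkk3 and Wnt10b and raised Nkd2. The 7 lower members and 1 higher stand beside 4.12% and 1.63% of the 14098 genes tested. The median over members was -0.19, against 0.02 over all genes tested. Stromal markers summed to 3303 to 4193 CPM here and 6047 to 6768 in siArp4, and endothelial markers to 1.05 to 1.25 and 0.434 to 0.606. Of the stromal markers, Col1a1 was at 255 RPKM here and 621 in siArp4, while Cxcl12 was at 112 and 72.3. Of the endothelial markers only Kdr was higher here, at 0.125 RPKM against 0.047. The part of these markers in the differences was not tested. Rspo2 read 4379, 4572 and 5014 in siArp4 and 1334, 1235 and 1099 with CK666 added (log2 fold change -1.93 ± 0.21, adjusted p = 6.97e-18). Sfrp4 read 328, 354 and 258 and then 52.9, 83 and 75.9 (log2 fold change -2.15 ± 0.27, adjusted p = 3.16e-13). Fzd2 read 2287, 2316 and 2058 and then 889, 974 and 1097 (log2 fold change -1.17 ± 0.20, adjusted p = 1.45e-07). Each of these 3 members had groups that did not overlap.

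Lgr6 read 1350.0, 978 and 1068 in siArp4 and 303, 129 and 208 with CK666 added, 5.32-fold lower (log2 fold change -2.41 ± 0.34, adjusted p = 4.39e-11). Ror2 read 67.4, 57.2 and 51.1 and then 19, 20.0 and 21.1 (log2 fold change -1.55 ± 0.34, adjusted p = 0.000111). Dkk3 read 879, 887 and 875 and then 465, 431 and 355 (log2 fold change -1.08 ± 0.20, adjusted p = 2.8e-06). The Dkk3 value passed under the fold minimum without siArp4+CK666 replicate 3 (-0.97).

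Wnt10b, a ligand known for favouring bone over fat in marrow, was at 18.5, 14 and 19 in siArp4 and 3.17, 1.91 and 1.05 with CK666 added. Summed counts of 6 against 54 put it at 11.9% per total count, with an exact 95% interval of 4.17% to 27.6% that covers counting error only (log2 fold change -3.08 ± 0.82, adjusted p = 0.00233). Leaving out siArp4 replicate 1, 2 or 3 or siArp4+CK666 replicate 1, 2 or 3 ended the Wnt10b call, with log2 fold changes from -3.52 to -2.78. In untransfected cells Wnt10b was at 5.8, 7.79 and 4.14 in control and 1.96, 0 and 0 with CK666, without overlap and not called (log2 fold change -3.18 ± 1.41, adjusted p = 0.0586). Summed counts of 2 against 18 there put it at 11.2% of control, with an exact 95% interval of 1.27% to 47.0% for counting error only. Nkd2 read 68.2, 61.6 and 85.2 in siArp4 and 214, 166 and 137 with CK666 added (log2 fold change 1.27 ± 0.28, adjusted p = 0.000111). With edgeR the Nkd2 call ended (1.26, adjusted p = 0.0107). Lgr4 passed the adjusted p under the fold minimum (log2 fold change -0.86 ± 0.26, adjusted p = 0.00915), and Sfrp1 (-0.52) and Sfrp2 (-0.30) passed neither. Ctnnb1 was at 0.73 (adjusted p = 5.76e-05). The 3 comparisons of this experiment share libraries.

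**Figure D4:**
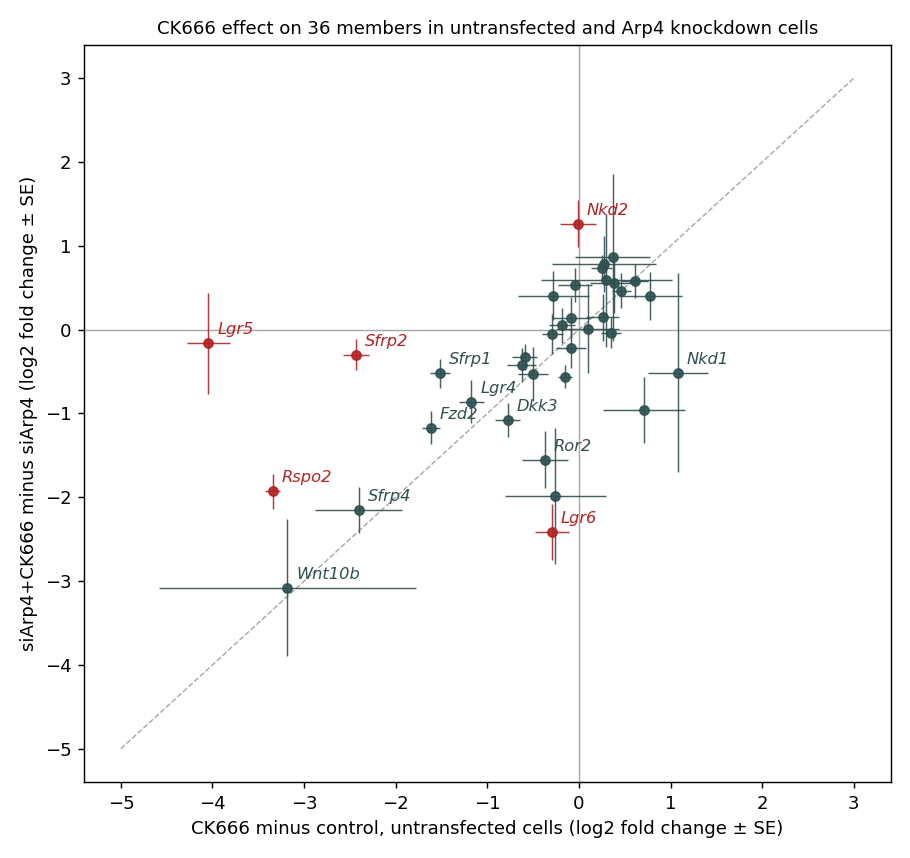
CK666 effect on each of the 36 measured members as log2 fold change ± SE, in untransfected cells on the x axis and in Arp4 knockdown cells on the y axis; the dashed line marks equal effects, and red marks the 5 members whose 2 effects differed by the called criteria. Lgr5 and Sfrp2 lie near 0 on the y axis (-0.16 and -0.30) and far to the left on the x axis (-4.05 and -2.43), while Lgr6 lies low on the y axis (-2.41).

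The CK666 effect in Arp4 knockdown cells differed from that in untransfected cells for Lgr5, Sfrp2, Rspo2, Lgr6 and Nkd2. The difference of the 2 effects was tested over all 18 libraries, each effect against its own experiment's group without CK666. It was higher for 4 members and lower for 1, beside 1.9% and 2.52% of the 13511 genes tested, and its median was 0.21 over members and -0.03 over all genes tested. The knockdown and the transfection cannot be told apart in this contrast, since control siRNA cells given CK666 are not analysed here.

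For Lgr5 the difference was 3.87 ± 0.65 (adjusted p = 1.84e-07). CK666 took Lgr5 from a mean of 414 to 25.1 in untransfected cells, while the knockdown libraries read 88.4, 126 and 112 without CK666 and 182, 53.4 and 56.9 with it. The last 2 groups overlapped, and the siArp4 mean in RPKM was already under that of control (0.512 ± 0.0885 against 1.95 ± 0.234). For Sfrp2 the difference was 2.13 ± 0.21 (adjusted p = 1.87e-22). It fell to 18.6% of control in untransfected cells and was at -0.30 in knockdown cells (adjusted p = 0.351).

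Rspo2 fell in both settings, by a smaller factor after knockdown, with 9.85% of control left in untransfected cells and 26.3% of siArp4 left in knockdown cells (difference 1.41 ± 0.20, adjusted p = 1.19e-10). For Lgr6 the difference was -2.12 ± 0.38 (adjusted p = 1.42e-06), with a called fall in knockdown cells and none in untransfected cells. For Nkd2 it was 1.27 ± 0.30 (adjusted p = 0.000501), with 197, 242 and 216 in control and 167, 253 and 231 with CK666 in untransfected cells. All 5 calls were kept in each alternative run.

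Sfrp1 sat just under the fold minimum in this contrast (log2 fold change 0.99 ± 0.17, adjusted p = 6.94e-07). It became a call without control replicate 1, CK666 replicate 2, siArp4 replicate 1 or siArp4+CK666 replicate 1 or 2, with values from 1.01 to 1.09. Wnt9a became one without control replicate 2 (-2.00, adjusted p = 0.00556). For Ror2 and Dkk3 the difference was not called, at -1.18 (adjusted p = 0.0197) and -0.30 (adjusted p = 0.397), and for Wnt10b it was 0.10 ± 1.46 with no adjusted p. For Fzd2, Sfrp4 and Lgr4 the difference did not pass, at 0.44 (adjusted p = 0.155), 0.25 (adjusted p = 0.806) and 0.31 (adjusted p = 0.552).

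The 15 measured members called in no comparison were Wnt5a, Wnt5b, Wnt11, 7 Frizzled genes, Lrp5, Lrp6, Axin1, Tcf7 and Znrf3. Wnt5b was at 0.2 ± 0.0238 RPKM in control and 2.57 ± 0.592 in siControl, with no test across the 2 experiments. The gene Fbxl14 overlaps the span of Wnt5b on the opposite strand with a mean of 757 counts. Whether their exons overlap was not checked, so the Wnt5b values may be uncertain. Lrp6 read 2204, 2579 and 2576 in control, 1588, 2969 and 2395 with CK666 and 2536, 2870.1 and 2951 with CytoD. Lrp5 passed the adjusted p under the fold minimum with CK666 (log2 fold change 0.46 ± 0.11, adjusted p = 6.22e-05). Axin1, a scaffold of the complex that degrades beta-catenin, did so as well (log2 fold change 0.35 ± 0.11, adjusted p = 0.00324). Znrf3 varied between libraries, at 243, 468 and 478 with CK666, and overlapped control (log2 fold change 0.38 ± 0.26, adjusted p = 0.255).

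**Figure D5:**
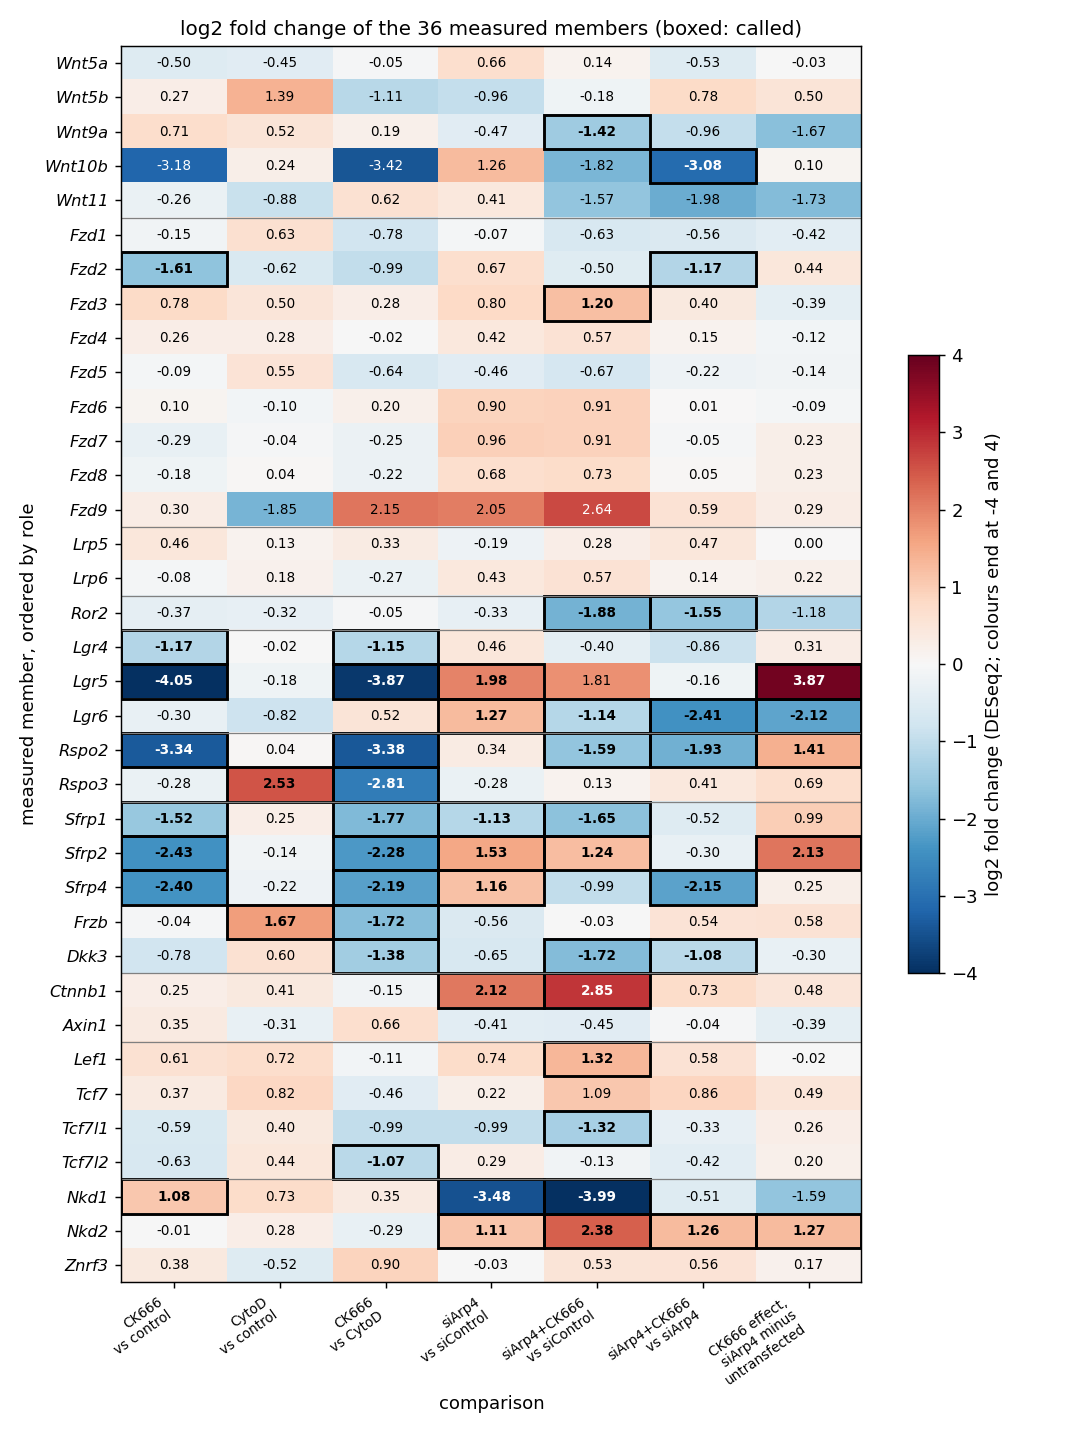
Log2 fold change of the 36 measured members, in rows by role, for 6 comparisons of 2 groups and, in the last column, the difference between the CK666 effect in Arp4 knockdown and in untransfected cells; boxes mark calls, and colours run from -4 (blue) to 4 (red). Boxes are most frequent for LGR receptors, R-spondins and secreted antagonists, and the co-receptors Lrp5 and Lrp6 have none.

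Other genes of the pathway were read from a list of 82 names, of which 80 were in the table and 58 were measured. Their calls ran 2 higher and 2 lower with CK666, 3 and 2 with CytoD, and 3 and 7 for CK666 against CytoD. Over all genes tested, the shares called higher and lower were 4.89% and 6.06%, 4.8% and 4.32%, and 5.08% and 6.74% in the same order. The list's median log2 fold change was -0.11, 0.09 and -0.14. Apcdd1, a membrane inhibitor of Wnt signalling, rose with CK666 (3.23 ± 0.23), while Ccn4, a beta-catenin target (-1.26 ± 0.17), and Prickle1, a planar polarity gene (-1.12 ± 0.22), fell. With CytoD, Ccn4 fell (-1.80 ± 0.17), as did the beta-catenin target Myc (-1.77 ± 0.13), and the co-repressor gene Tle2 rose (1.32 ± 0.25). Against CytoD, the CK666 libraries were higher for Apcdd1 (2.82 ± 0.22), Myc (2.46 ± 0.13) and Dact2 (1.73 ± 0.29). Each of these had an adjusted p of 2.58e-06 or less by DESeq2.

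In the second experiment the list gave 9 higher and 5 lower with Arp4 knockdown, 9 and 6 with knockdown and CK666 against siControl, and 2 and 0 for CK666 within knockdown cells. Over all genes tested, these stand beside 6.69% and 9.49%, 8.06% and 12.4%, and 1.63% and 4.12%. The list's median log2 fold change was 0.13, 0.27 and 0.11. Prickle1 rose with the knockdown (3.27 ± 0.19), as did Myc (2.07 ± 0.19), and the Dishevelled gene Dvl3 fell (-1.96 ± 0.21). With knockdown and CK666, Prickle1 (2.52 ± 0.19), Dact1 (2.10 ± 0.29) and Apcdd1 (2.04 ± 0.46) were higher than in siControl. Within knockdown cells CK666 raised Apcdd1 (1.59 ± 0.45) and Dact1 (1.23 ± 0.27). The CK666 effect differed between the 2 settings for 1 gene upward and 3 downward, beside 1.9% and 2.52% of all genes tested, among them Dact2 (-1.52 ± 0.41), Igfbp4 (-1.19 ± 0.25) and Myc (-1.03 ± 0.21). Each value given for this experiment had an adjusted p of 0.0054 or less by DESeq2. Calls on this list were not followed through the fits without 1 library.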

How the data were processed

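Libraries of 18 MSC cultures (6 groups of 3) were unstranded and sequenced by a service provider. The authors quantified paired-end reads with Salmon 1.2.1 (version also in the submitters' processing notes) on GRCm38 with GENCODE vM25, and deposited 1 table of expected counts per gene, in which 0% of nonzero values were whole. Rounding changed no library total by more than 277 counts. Symbols and positions came from a GENCODE annotation of the same build, with 54094 IDs matched and 253 not. DESeq2 1.42.0 in R 4.3.3 was fitted to all genes, group only, over the 9 libraries of an experiment, and over all 18 for the difference of CK666 effects. DESeq2 with default parameters and the call rule follow the study's methods; the libraries fitted together and the test of the difference were chosen here.

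Members, gene lists and tests were chosen with earlier results of these data known. Every member was accounted for, and measured members called anywhere were named with library values, Lgr5 regardless. Of the wider list, up to 3 genes per comparison were named, by size of log2 fold change at a mean of 50 or more. RPKM used the total count and the union of exons. Alternatives were edgeR 4.0.16, TMM size factors, a filter on low counts, no fold minimum, other sets of libraries, a replicate block and 30 fits without 1 library. On data simulated from these counts, with known folds, the scripts were tested before use.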

Additional observations from a re-analysis of the deposited data

Results flagged for a closer look

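There were 5 members with a CK666 effect that differed between Arp4 knockdown and untransfected cells by a test of the difference itself (DESeq2 over all 18 libraries, adjusted over all genes tested, knockdown minus untransfected on the log2 scale). Lgr5 differed by 3.87 (adjusted p = 1.84e-07), from -4.05 in untransfected to -0.16 in knockdown cells. Sfrp2 differed by 2.13 (adjusted p = 1.87e-22), from -2.43 to -0.30. Lgr6 differed by -2.12 (adjusted p = 1.42e-06), from -0.30 to -2.41. Rspo2 differed by 1.41 (adjusted p = 1.19e-10), from -3.34 to -1.93. Nkd2 differed by 1.27 (adjusted p = 0.000501), from -0.01 to 1.27. Groups of 3 were too small to look for single outlying libraries.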

How the results depend on the processing

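Without the fold minimum, 15 members were called with CK666, 10 with CytoD, 17 for CK666 against CytoD and 14 for siArp4 against siControl, in place of 8, 2, 10 and 8; over all genes tested that rule called 30%, 29.6%, 31.8% and 25.1%. In the last comparison edgeR called 5, beside 13.1% of the genes it tested. Leaving out 1 library at a time gave 7 to 8 members with CK666, 2 with CytoD in each fit, 9 to 11 for CK666 against CytoD, 4 (without siControl replicate 3; 5 without siArp4 replicate 1) to 11 (without siControl replicate 1) for siArp4 against siControl, 11 to 17 for siArp4+CK666 against siControl, 6 to 8 against siArp4 and 5 to 6 for the difference of CK666 effects. Over all genes tested, the smallest and largest of these fits gave 1433 and 1688, 1104 and 1280, 1591 and 1813, 1968 and 3198, 2618 and 4019, 575 and 926, and 469 and 651 calls in the same order. No called member value reversed its direction: of the 771 results that the alternatives gave for the 54 called values, 727 kept the call and 44 lost it. Among the 198 values not called, alternatives made 36 calls, for 13 members. Numbers in the labels did not pair the libraries: same-numbered libraries correlated from -0.38 to 0.15 in the first experiment and from -0.54 to 0.69 in the second. The replicate block gave 7 members with CK666 and 14 for siArp4+CK666 against siControl, beside 10.6% and 21.9% of all genes tested; Nkd1 (1.08, adjusted p = 0.0164) and Wnt10b (-3.06, adjusted p = 0.0127) lost their calls under it, while Lgr5 gained one against siControl (1.81, adjusted p = 0.004) and Sfrp1 gained one for the difference of CK666 effects (adjusted p = 8.54e-07). Fitting all 18 libraries together gained calls for Wnt5b with CytoD (1.39), Fzd2 and Tcf7l1 for CK666 against CytoD (-1.01 each) and Lgr5 (1.81) and Fzd9 (2.64) for siArp4+CK666 against siControl. The values of Nkd1, Wnt10b and Wnt9a rest on few counts, and the cause of changed calls was not tested. None of the 16 members under the minimum was called, which does not show that they did not differ.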
